A study of Mus musculus with 12 samples.

Results

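The transcripts of 10 genes of immune checkpoint ligands and "don't-eat-me" signals were followed in bulk RNA-seq libraries labelled as tumor-associated macrophages (TAMs), to see how they differed between tumors of a carcinogen-exposed and a vehicle-exposed cancer clone. The genes were listed by name, with earlier results of these data known: Cd274, Pdcd1lg2, Pvr, Nectin2, Cd276, Vsir, Lgals9, Havcr2, Cd47 and Sirpa, which are 10 of the 55202 genes in the count table. There were 6 libraries of DMBA3-4 TAM and 6 of DMSO3-1 TAM. DMBA3-4 was cloned from a single cell of a C57BL/6 mammary tumor line (PyMt, labelled with mCherry and luciferase) that had been exposed in culture to 20 µmol/L of DMBA (7,12-dimethylbenz[a]anthracene, a polycyclic carcinogen) in 3 cycles of 24 hours. DMSO3-1 was cloned in the same way after the vehicle. Both clones were grown under the skin by the inguinal fat pad of female Rag1-/- C57BL/6 mice, which lack T and B cells but keep macrophages and natural killer cells, and sorting took CD45+ CD11b+ F4/80+ cells. Each group rests on 1 clone, so the exposure and the clone cannot be told apart. The sources do not say that libraries came from separate mice. The p-values therefore set the group difference only against the spread among these libraries, which could be technical variation.

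Checkpoint ligands are surface or secreted proteins that bind receptors on lymphocytes and restrain them. PD-L1 and PD-L2 bind PD-1, CD155 and CD112 bind TIGIT, and galectin-9 binds TIM-3. CD47 works in the same spirit on phagocytes: it binds SIRPα, a receptor of myeloid cells, and that contact holds back engulfment of the cell that carries it. In tumors these proteins can be made by the cancer cells, the macrophages or both.

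The libraries held 3040452 to 4632817 counts in the DMBA3-4 TAM group and 2752005 to 3978901 in the DMSO3-1 TAM group. The labelled cell type was checked against its markers, and its defining transcripts were close to absent: Ptprc (CD45) had 0 to 7 counts per library, and Itgam (CD11b) and Adgre1 (F4/80) had 0 to 3 each. The 20 macrophage genes examined summed to between 0.00810% and 0.0124% of counts in DMBA3-4 TAM and between 0.00688% and 0.00973% in DMSO3-1 TAM, while 10 epithelial genes summed to between 0.152% and 0.215% and between 0.102% and 0.176%, and 10 fibroblast genes to between 0.195% and 0.248% and between 0.210% and 0.267%. The epithelial sum came almost wholly from the keratins Krt8 and Krt18, and Epcam was at 0 in every library. The library names below are therefore those of the labels. The first principal component (72.4% of variance) separated the groups, with DMBA3-4 TAM replicate 5 (33.8) nearer to the other group than its fellows (52.0 to 75.0), and DMSO3-1 TAM replicates 1 and 6 (-45.1 and -45.5) nearer than theirs (-72.7 to -67.1). Cldn3, an epithelial tight junction gene, reached 55 counts in DMBA3-4 TAM replicate 5, against 70 to 105 in DMSO3-1 TAM and 0 in the other 5 DMBA3-4 TAM libraries. Of the 4 epithelial genes tested, Cldn3 and Cdh1 were lower in DMBA3-4 TAM, Krt8 was higher (log2 fold change 0.57, edgeR adjusted p = 0.00698) and Krt18 was not called. Of the 8 fibroblast genes tested, Fap (4.51), Lum (2.26) and Col6a3 (0.39) were higher, Pdgfrb (-1.39) was lower and 4 were not called. In bulk RNA, fewer cells of a type and less RNA per cell cannot be told apart.

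Of the 10 genes, 8 had enough counts to be tested, and 4 of them were higher in DMBA3-4 TAM: Vsir, Cd274, Lgals9 and Cd276. None of the 8 was lower past the threshold of adjusted p under 0.05 in edgeR's quasi-likelihood test, and Pvr, Nectin2, Cd47 and Sirpa were not called. Across the 11511 genes tested, 60.1% were called in either direction, 29.9% higher and 30.2% lower in DMBA3-4 TAM, so a call by itself was common in this comparison. The 4 genes called were also the 4 whose groups did not overlap, and 32.2% of all genes tested had groups that did not overlap. The median log2 fold change was 0.48 over the 8 genes and 0.0027 over all genes tested, and the median absolute change was 0.88 and 0.57. Cd274 (1 to 9 counts) and Vsir (0 to 6) lay below the filter's minimum of 10 counts in every DMSO3-1 TAM library. They passed the filter only through DMBA3-4 TAM, so they could be tested only if higher there. The count of 4 and these medians are therefore descriptions, not support for a shared direction. Levels are counts scaled by TMM to a library of 1000000 counts (CPM), with mean ± SD over 6 libraries. Fold changes are DMBA3-4 TAM over DMSO3-1 TAM.

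**Figure D1:**
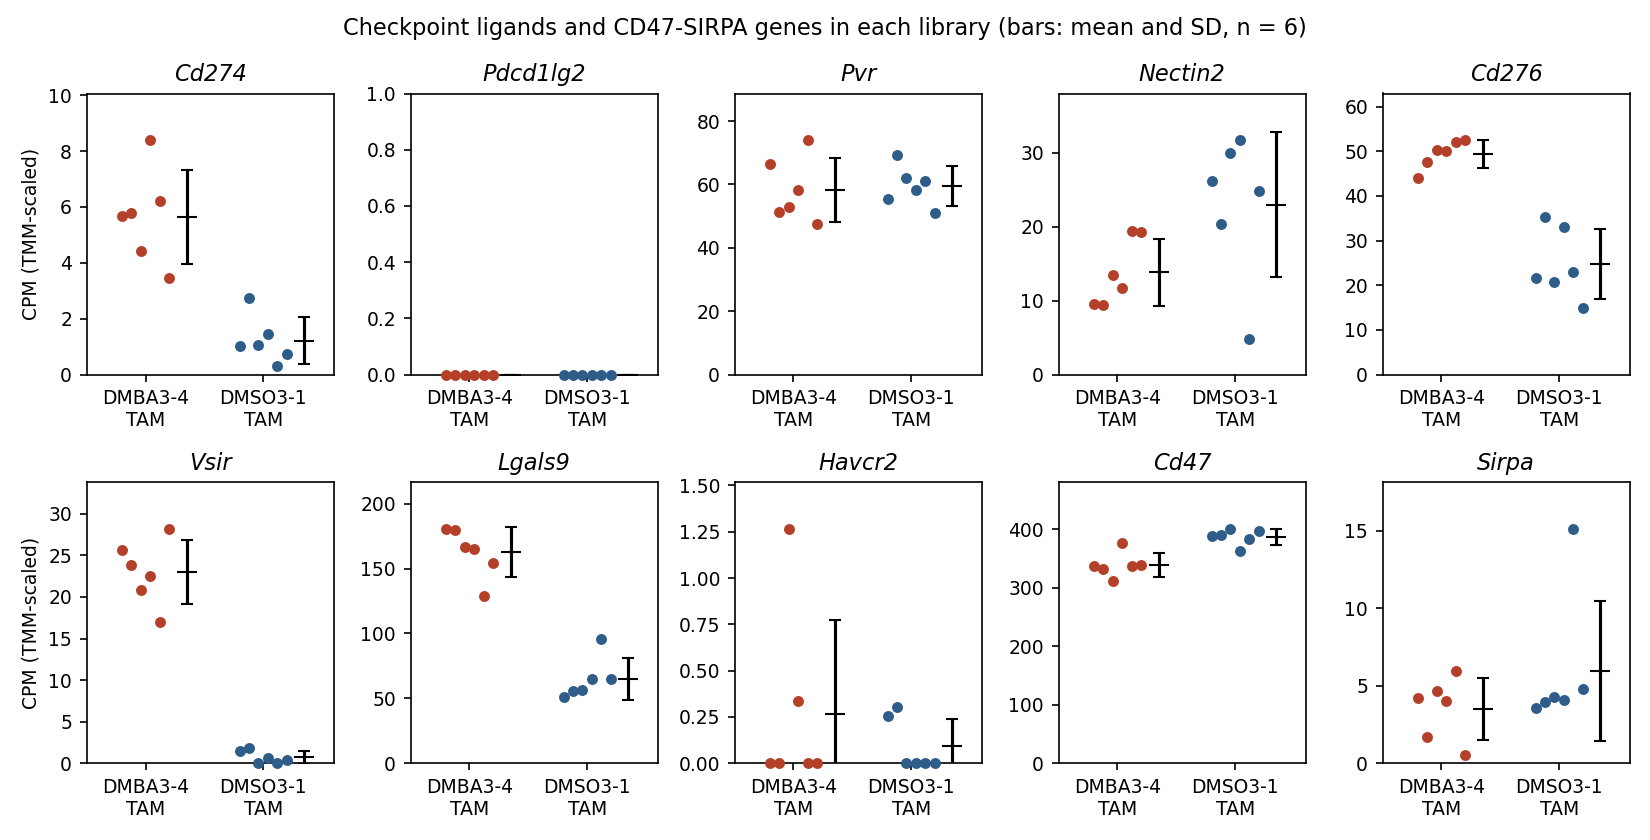
CPM of each of the 10 genes in each library (points) with the mean and SD of 6 libraries beside them; each panel has its own linear axis from 0. The groups do not overlap for Cd274, Cd276, Vsir and Lgals9, and Pdcd1lg2 is at 0 throughout.

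Promoter stretches are printed for the 4 genes that were higher, so that the letters around their starts can be read beside the values. RefSeq promoter windows (GRCm38.p6, from 250 bases before to 50 after the start) matched 8 of the 10 genes, and Pvr and Sirpa had no entry. The windows were searched on both strands for the core of the interferon-stimulated response element (GAAA, any 2 bases, GAAA), for the STAT dimer site TTCNNNGAA and for the dioxin response element TNGCGTG, to which the aryl hydrocarbon receptor binds when DMBA or related compounds activate it. These were present in 3.443%, 8.298% and 5.065% of the 32851 promoter windows. Only Lgals9, with 2 interferon elements, and Cd276, with 1 dioxin element, held a match among the 8. Matches are in capitals, Lgals9 and Cd276 lie on the minus strand, and all are written 5′ to 3′ on the strand of the gene. In Lgals9 the capitals are the reverse complement of the element.
Lgals9, -80 to -1, chr11:78984925-78985004: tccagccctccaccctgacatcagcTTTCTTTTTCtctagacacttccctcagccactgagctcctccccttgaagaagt
Lgals9, 6 to 35, chr11:78984890-78984919: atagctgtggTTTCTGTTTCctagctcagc
Cd276, 11 to 40, chr9:58554994-58555023: cggtgagtgcTTGCGTGgcgcggggcggcg
Cd274, -80 to -1, plus strand, chr19:29367358-29367437: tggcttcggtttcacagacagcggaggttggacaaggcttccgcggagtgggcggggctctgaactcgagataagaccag
Vsir, -80 to -1, plus strand, chr10:60346771-60346850: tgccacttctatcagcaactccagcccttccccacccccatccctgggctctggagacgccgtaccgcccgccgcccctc
The Lgals9 matches lie at -55 to -46 and at 16 to 25 relative to the RefSeq start, and that of Cd276 at 21 to 27. The GENCODE coordinates given below begin Cd276 farther upstream, at chr9:58555437, so its match lies inside the gene as given there. Cd274 and Vsir are shown for contrast, without a match. The G+C share was 52.5% in the upstream stretch of Lgals9, 60.0% in that of Cd274 and 68.75% in that of Vsir. A match describes the letters only.

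The ligands of PD-1 came first. Cd274 (chr19:29367455-29388095, plus strand, GRCm38) encodes PD-L1, which dampens activated T cells. Its level was 3.46 CPM at the lowest, 5.72 at the median and 8.38 at the highest in DMBA3-4 TAM, and 0.302, 1.04 and 2.74 in DMSO3-1 TAM, from 14 to 25 and 1 to 9 counts. Every DMBA3-4 TAM library lay above every DMSO3-1 TAM library, although the counts were few. The means were 5.65 ± 1.68 and 1.22 ± 0.838 CPM (SD, n = 6), a log2 fold change of 2.16 (SE 0.38, 95% interval 1.36 to 2.96, edgeR adjusted p = 0.000165), and the two-sided exact permutation p was 0.00216, the smallest that the 924 splits allow. Pdcd1lg2 (chr19:29410919-29471161), which encodes PD-L2 and is the neighbor of Cd274 on the plus strand, had 0 counts in all 12 libraries. At this depth 3 counts correspond to 0.633 to 1.10 CPM per library, which is the level a count of 0 still allows in a single library and covers counting error only. Only Cd274 of the pair was detected. An antisense gene annotated over Cd274 was not analysed here.

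Vsir, which encodes VISTA, a B7 family protein of myeloid cells and some tumors that restrains T cells, had the largest difference of the 8 genes. It lies at chr10:60346851-60372684 on the plus strand, inside Cdh23 on the minus strand. Its level ran from 17.0 CPM through a median of 23.1 to 28.2 in DMBA3-4 TAM, and from 0 through 0.476 to 1.83 in DMSO3-1 TAM, from 63 to 114 and 0 to 6 counts. The lowest DMBA3-4 TAM library, replicate 5, thus lay far above the highest DMSO3-1 TAM library. The means were 23.0 ± 3.88 and 0.715 ± 0.779 CPM (n = 6), a log2 fold change of 4.86 (SE 0.42, 95% interval 3.98 to 5.74, edgeR adjusted p = 1.44e-07), which ranked 112 from the top among the 11511 genes tested. The exact permutation p was 0.00216. Cdh23, which encodes a cadherin and overlaps Vsir on the other strand, had 6 to 45 counts in DMBA3-4 TAM and 37 to 66 in DMSO3-1 TAM and moved the other way (log2 fold change -1.65, edgeR adjusted p = 0.00121). The sources do not state whether counting used strand, so reads of the pair cannot be told apart where they overlap. Vsir and Lgals9 are also made by myeloid cells. The summed macrophage share given above overlapped between the groups, and Mertk and Cd14, which gave much of it, were not called. Of the 7 macrophage genes tested, C1qb (log2 fold change 2.24, edgeR adjusted p = 0.000621) and Ctss (2.34, adjusted p = 0.00354) were higher in DMBA3-4 TAM, with the same direction as Vsir and Lgals9, Cx3cr1 was lower (-1.70, adjusted p = 0.0392) and 4 were not called. Tyrobp, with 2 to 15 counts against 0 to 2, was the 1 gene of the 20 whose groups did not overlap in CPM. C1qa (1.44 to 3.69 against 0 to 1.52 CPM) and Fcer1g (1.48 to 5.41 against 0 to 1.52) overlapped narrowly. Both had too few counts to be tested. The 10 dendritic cell genes summed to between 0.0296% and 0.0499% in DMBA3-4 TAM and between 0.00253% and 0.00573% in DMSO3-1 TAM. Bst2, an interferon-induced gene of many cell types, carried that difference with 1040 to 2259 and 64 to 145 counts. The other 9 genes summed to between 0.00102% and 0.00160% and between 0.000646% and 0.00302%, with Zbtb46 lower in DMBA3-4 TAM (-1.04, adjusted p = 0.00843) and Siglech at 0 in every library. The part of these cells in the higher values was not tested.

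Cd276 (chr9:58524298-58555437, minus strand) encodes B7-H3, a B7 family protein found on many solid tumors. It gave 44.1, 50.1 and 52.4 CPM (lowest, median, highest) in DMBA3-4 TAM and 15.0, 22.3 and 35.3 in DMSO3-1 TAM. The groups did not overlap, and the DMSO3-1 TAM libraries were more spread, with a coefficient of variation of 31.5% against 6.33%. The means were 49.4 ± 3.13 and 24.8 ± 7.81 CPM (n = 6), a log2 fold change of 0.99 (SE 0.18, 95% interval 0.61 to 1.36, edgeR adjusted p = 0.000205, exact permutation p = 0.00216).

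Lgals9 and Havcr2 form the TIM-3 axis. Lgals9 (chr11:78962974-78984946, minus strand) encodes galectin-9, a secreted lectin. It gave 129, 166 and 181 CPM (lowest, median, highest) in DMBA3-4 TAM and 51.2, 60.4 and 95.5 in DMSO3-1 TAM. The groups did not overlap, and the libraries nearest each other were replicate 5 of both groups. The means were 163 ± 19.3 and 64.7 ± 16.0 CPM (n = 6), a log2 fold change of 1.33 (SE 0.15, 95% interval 1.02 to 1.64, edgeR adjusted p = 2.01e-06, exact permutation p = 0.00216). Havcr2 (chr11:46454935-46481255, plus strand), which encodes the receptor TIM-3 of T cells and myeloid cells, had 0 to 6 counts in DMBA3-4 TAM and 0 to 1 in DMSO3-1 TAM. It was at 0 in 4 libraries of each group, did not pass the count filter and gave an exact permutation p of 0.576, so few counts of the receptor were available beside those of its ligand.

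**Figure D2:**
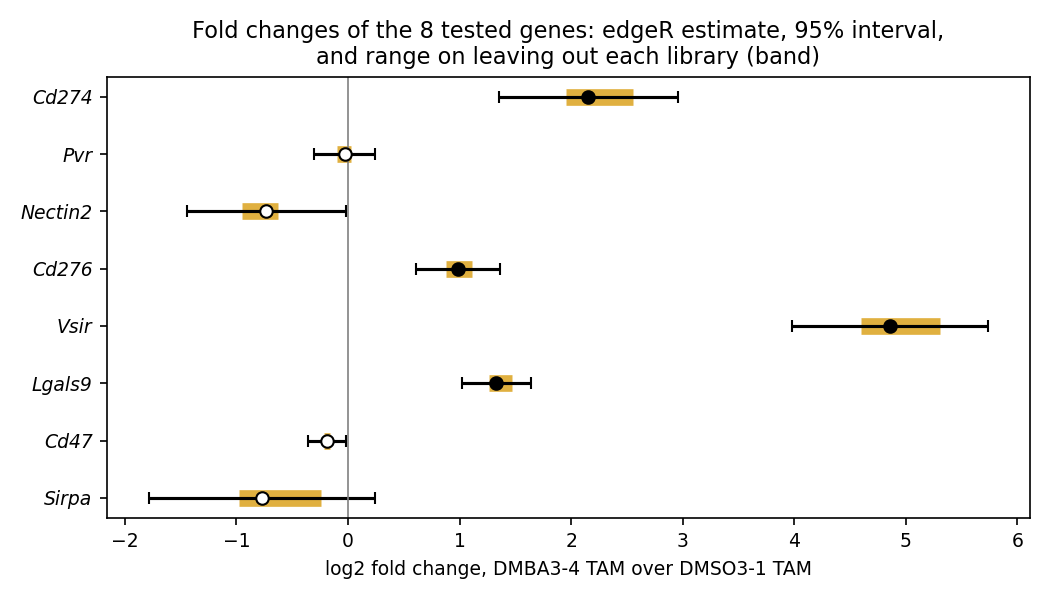
Log2 fold change of the 8 tested genes on the x axis (points, edgeR) with 95% intervals (bars) and the range of the estimate when each library in turn was left out (yellow bands). Filled points passed the threshold; Vsir has the largest estimate at 4.86, and the interval of Pvr spans 0.

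The ligands of TIGIT did not pass the threshold. Pvr (chr7:19903578-19921160, minus strand) encodes CD155, which binds TIGIT, CD96 and the activating receptor CD226. It ranged from 47.5 to 73.9 CPM around a median of 55.5 in DMBA3-4 TAM and from 50.9 to 69.4 around 59.6 in DMSO3-1 TAM. The 2 ranges overlapped throughout. The log2 fold change was -0.03 (SE 0.13, edgeR adjusted p = 0.864), with an interval from -0.30 to 0.25, that is a ratio between 0.811 and 1.19. Larger changes of Pvr in either direction thus lay outside the interval.

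Nectin2 (chr7:19716644-19750483, minus strand) encodes CD112, an adhesion protein that binds TIGIT and PVRIG. It gave 9.38, 12.6 and 19.4 CPM (lowest, median, highest) in DMBA3-4 TAM and 4.84, 25.6 and 31.7 in DMSO3-1 TAM. Without DMSO3-1 TAM replicate 5, the library at 4.84, the other 5 libraries of that group (20.4 to 31.7) lay above all of DMBA3-4 TAM. The log2 fold change was -0.73 (SE 0.33, 95% interval -1.44 to -0.02, edgeR adjusted p = 0.0702, exact permutation p = 0.203). Without DMSO3-1 TAM replicate 5 it was -0.95 with an adjusted p of 0.00168, and without DMBA3-4 TAM replicate 5 the adjusted p was 0.0488. Leaving out either of these libraries thus changed the call. So did the test with all 12 libraries kept: the adjusted p was 0.0479 in DESeq2 and 0.0123 in limma-voom with quality weights. In limma-voom without weights it was 0.224.

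Cd47 (chr16:49800533-49915010, plus strand) encodes CD47, carried by most cells, and varied least of the 8 tested genes between libraries, with a coefficient of variation of 6.23% in DMBA3-4 TAM and 3.55% in DMSO3-1 TAM. It gave 312, 337 and 377 CPM (lowest, median, highest) and 362, 389 and 401. Only DMBA3-4 TAM replicate 4 (377) reached into the range of the other group. The log2 fold change was -0.19 (SE 0.08, 95% interval -0.36 to -0.02), with an edgeR adjusted p of 0.0514. The exact permutation test gave p = 0.00433, or 0.0109 adjusted over all genes tested, and DESeq2 an adjusted p of 0.0125, so the call depended on the test while the ratio of 0.876 was small. Without DMBA3-4 TAM replicate 4 the edgeR adjusted p was 0.0377, and without DMSO3-1 TAM replicate 4 it was 0.0443.

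Sirpa (chr2:129592835-129632228, plus strand) encodes the receptor of CD47 on macrophages and has close relatives in the Sirpb1 family, of which Sirpb1a, Sirpb1b and Sirpb1c had at most 2 counts in any library. It gave 0.495, 4.10 and 5.93 CPM (lowest, median, highest) in DMBA3-4 TAM and 3.53, 4.20 and 15.1 in DMSO3-1 TAM, from 2 to 22 and 12 to 50 counts. The medians were close, and DMSO3-1 TAM replicate 5 stood apart at 15.1. The log2 fold change was -0.77 (SE 0.48, 95% interval -1.78 to 0.24, edgeR adjusted p = 0.172), and -0.24 without that library. Sirpa was low here, as were the macrophage genes given above.

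Per length of exon, the order of levels in DMSO3-1 TAM was Cd47 (61.6 ± 2.19 CPM per kb, n = 6), Lgals9 (30.3 ± 7.49), Pvr (9.72 ± 1.04), Cd276 (6.78 ± 2.14), Nectin2 (6.59 ± 2.79), Sirpa (1.21 ± 0.917), Cd274 (0.337 ± 0.231), Vsir (0.143 ± 0.155) and Havcr2 (0.034 ± 0.053). From Pvr downward the neighbors in this order overlapped within 1 SD, except Nectin2 and Sirpa. In DMBA3-4 TAM, Lgals9 (76.1 ± 9.03) stood above Cd47 (54.0 ± 3.36), Cd276 (13.5 ± 0.855) above Pvr (9.53 ± 1.65), and Vsir (4.59 ± 0.774) came next, within 1 SD of Nectin2 (3.96 ± 1.30). Cd274 (1.56 ± 0.463) and Sirpa (0.711 ± 0.410) followed and overlapped within 1 SD, with Havcr2 (0.098 ± 0.186) last among the genes detected.

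**Figure D3:**
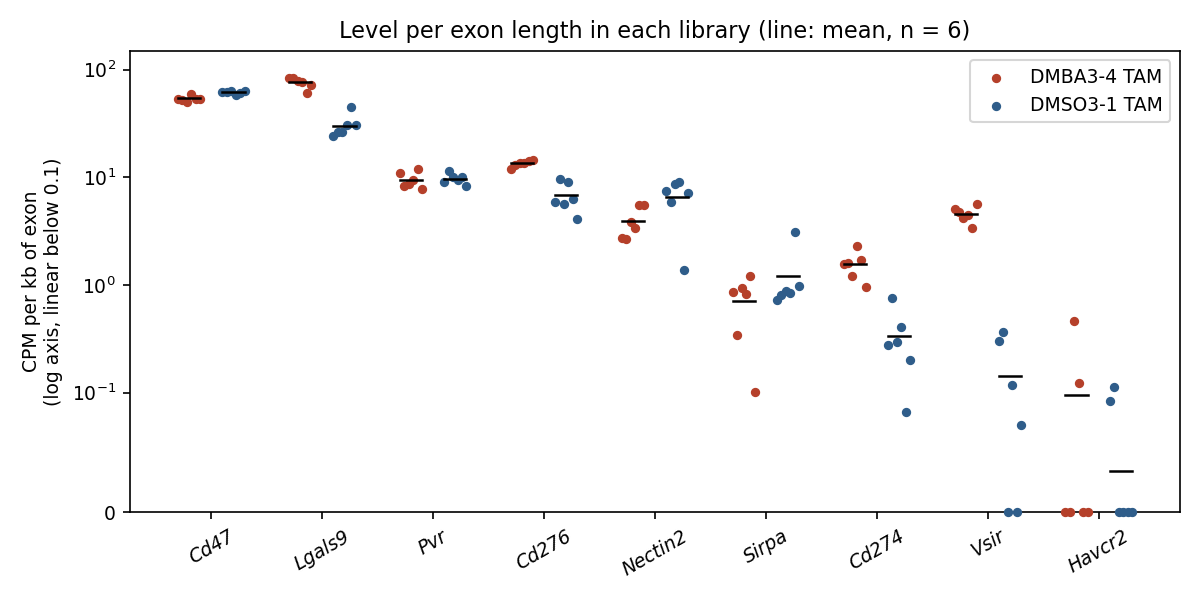
CPM per kb of exon (y axis, logarithmic and linear below 0.1) of the 9 genes detected, 1 point per library and a line at the mean of 6. Lgals9 and Cd47 are the highest in both groups, and Vsir changes place from 0.143 to 4.59.

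The authors' own comparison table gives a mean normalized count for each gene and no value per library, under other sample names, and its makeup differed from that of the count table. The macrophage genes made up 5.55% of its mean and 0.00872% of the count table, and Lyz2, the macrophage lysozyme, stood at 20015 per 1000000 counts against 8.17. Of the 10 genes, 6 were higher in the authors' mean and 4 lower. Sirpa stood at 833 per 1000000 in the authors' mean and 4.67 in the count table, Havcr2 at 114 and 0.179, Vsir at 539 and 11.8, Lgals9 at 543 and 113, and Cd274 at 63.2 and 3.41. Cd47 differed least (341 and 360), and Pvr (42.6 and 58.4), Nectin2 (11.2 and 18.3) and Cd276 (22.3 and 36.8) were somewhat lower in the authors' mean. Pdcd1lg2 was listed at 3.11 per 1000000 there. These are the authors' means, with no SD or n, and no test was made between the tables.

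**Figure D4:**
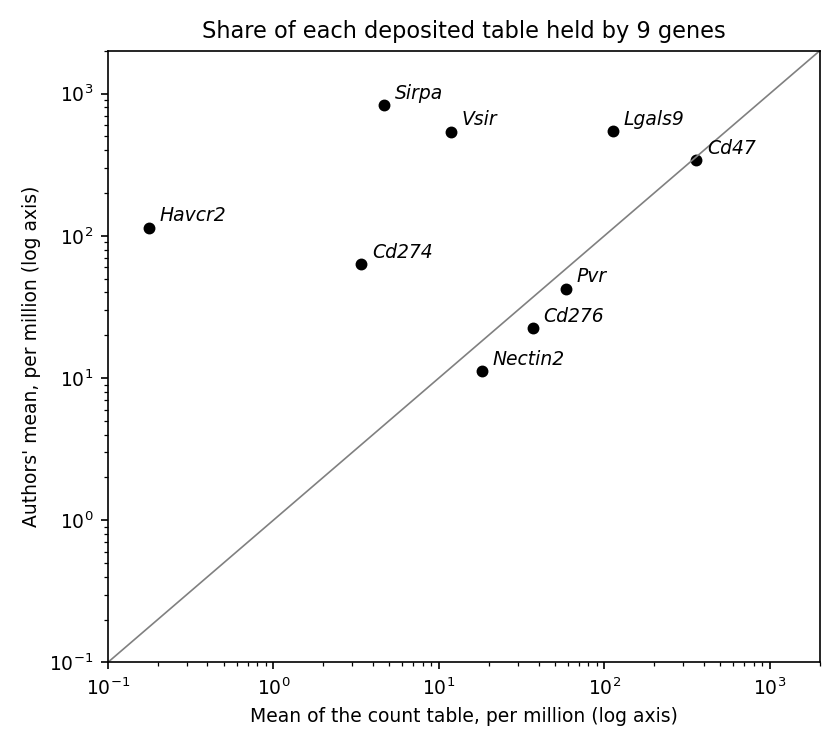
Mean per 1000000 counts of 9 genes in the count table (x axis) and in the authors' comparison table (y axis), both logarithmic, with the line of equal values. Sirpa, Havcr2, Vsir and Cd274 lie far above the line and Cd47 on it.

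The partners of these genes were described from 7 lists. Their counts of calls are to be read beside the 60.1% called over all genes tested, 29.9% higher and 30.2% lower. Of 13 checkpoint receptors of T and natural killer cells, Tigit alone had enough counts to be tested (log2 fold change -0.94, edgeR adjusted p = 0.0807), and the other 12 had at most 11 counts in any library, PD-1 itself (Pdcd1) being at 0 throughout. The 10 natural killer cell markers together held at most 0.000294% of counts, with 3 at 0 in every library. Of 16 other costimulatory and coinhibitory ligands, 3 were tested: Tnfsf9, the ligand of 4-1BB, was higher (0.76, adjusted p = 0.00814), Cd200, an inhibitory ligand for myeloid cells, was lower (-2.50, adjusted p = 0.000216), and Cd80 was not called. Among 8 nectins and nectin-like proteins 4 were tested, with Nectin3, a binding partner of CD155, higher (1.24), and Cadm1 (-1.83) and Afdn (-1.10), which encodes the nectin anchor afadin, lower. The median log2 change of these 4 was -0.84, beside 0.0027 for all genes.

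Of 13 other galectins and TIM-3 partners, 7 were tested. Lgals8 (0.45) and Hmgb1 (0.60), a nuclear protein and TIM-3 ligand with many pseudogenes whose count is uncertain, were higher, Lgals3 was lower (-0.53), and 4 were not called. Lgals9, at 1.33, had a larger change than any of these 7. Among 19 other phagocytosis signals 11 were tested, of which 3 were higher and 5 lower. B2m (1.45), whose MHC class I protein is known in human cells as a signal against engulfment, and Abca1 (1.35), a lipid exporter, were higher, while Cd24a (-2.95), whose human counterpart is another such signal, and Lrp1 (-1.99), the receptor for the calreticulin that invites engulfment, were lower. B2m and Cd24a thus changed in opposite directions, with Cd47 not called.

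The 18 transcriptional regulators of Cd274 reported were all tested, 4 higher, 7 lower and 7 not called, with a median of -0.22. Irf9 (2.18, adjusted p = 4.88e-07) and Stat2 (1.93, adjusted p = 1.46e-06), which act together downstream of the type I interferon receptor, had the highest changes of these 18, and Irf2 (-1.39), which competes with IRF1 at its sites, and Stat3 (-1.17) the lowest. Irf9 rose from 19.8 ± 5.88 CPM in DMSO3-1 TAM to 89.6 ± 16.3 in DMBA3-4 TAM (n = 6). Of 12 regulators of PD-L1 protein stability and shedding, all tested, 1 was higher (Cops5, 0.52, a deubiquitinating subunit), 4 lower, among them Hip1r (-1.13), which sends PD-L1 to the lysosome, and Csnk2a1 (-0.84), a subunit of casein kinase 2, and 7 were not called.

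**Figure D5:**
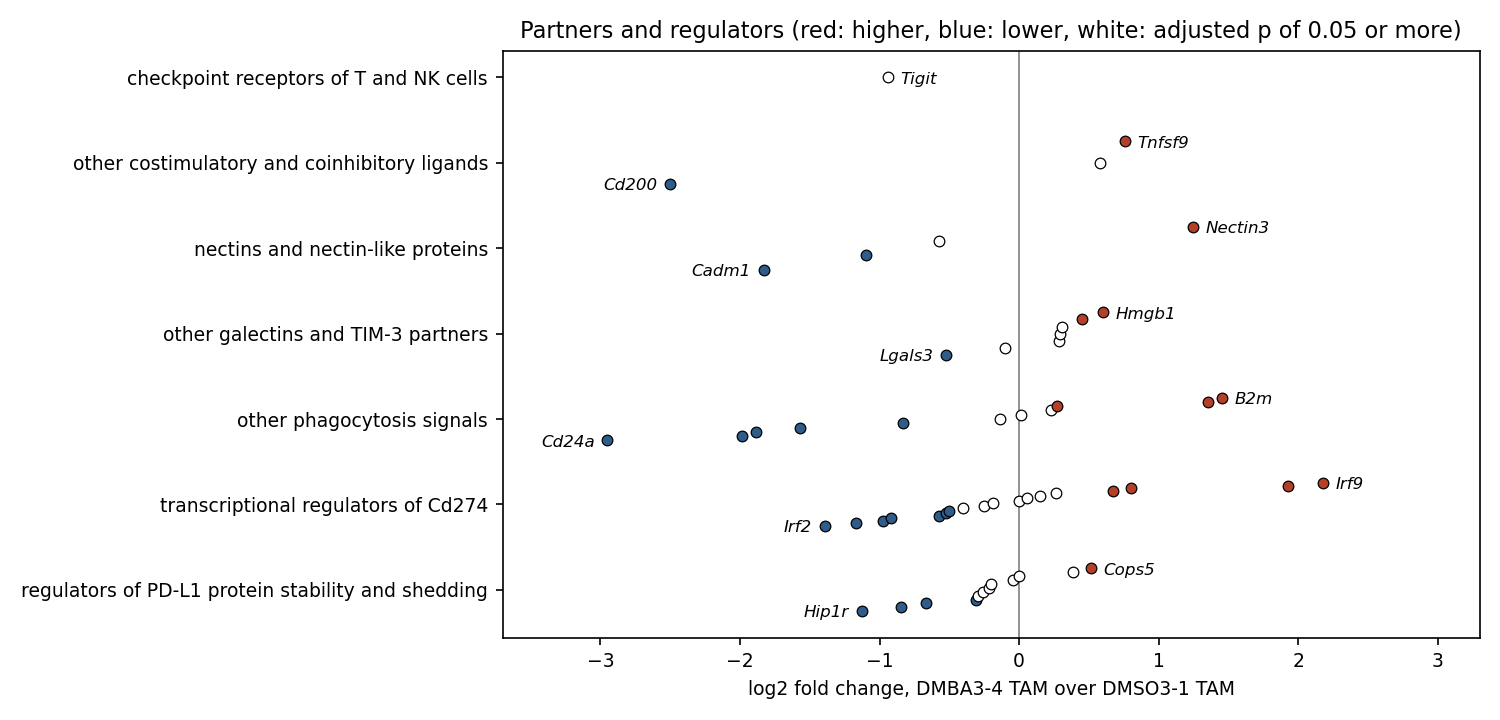
Log2 fold change (x axis) of each tested gene reported from the 7 lists (rows), DMBA3-4 TAM over DMSO3-1 TAM, with the lowest and highest gene of each list named. Irf9 at 2.18 is the highest and Cd24a at -2.95 the lowest of those plotted.

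Patterns across the 12 libraries were also compared after each group mean was subtracted, as a description over libraries that differ in depth and may share technical effects. Among 7381 genes with a mean of at least 20 CPM, those most like Cd274 were Zfp386 (Pearson r 0.91), Erbin (0.91) and Osbpl1a (0.90), and among 7380, those most like Pvr were Nbl1 (0.91), Thbs1 (0.91) and Fem1b (0.89). These were picked as the highest of all correlations searched over only 12 libraries, and were not tested. Cd274 had only 1 to 9 counts per DMSO3-1 TAM library. Within the 28 pairs of tested members, the farthest from 0 was Nectin2 with Lgals9 (r -0.86), which was -0.57 without DMSO3-1 TAM replicate 5.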

How the data were processed

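RNA was measured in 12 libraries, 6 per group. The authors deposited whole-number counts per gene, not normalized, and a table of their own comparison whose mean normalized count (a signal averaged over all its samples) was used, while its log2 fold changes, standard errors and p-values were not. The labels name GRCm38 (mm10), the aligner and counter are not given in the sources used here, and the paper and the labels name different library kits. Groups follow the labels. Entries with a number for a name (0.0893% to 0.128% of counts) were left out.

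Counts were filtered with filterByExpr, scaled by TMM and tested with the robust quasi-likelihood test of edgeR 4.0.16 (R 4.3.3), with Benjamini-Hochberg adjustment over 11511 genes. Single genes were also tested by a two-sided exact permutation of log2(CPM + 1) over 924 splits. The study names limma. DESeq2 1.42.0, limma-voom (limma 3.58.1), other filters, scalings and thresholds, a block for the replicate number and leaving out libraries were alternatives. No pair of libraries within a group was a duplicate (lowest chi-square per gene 2.56, DMBA3-4 TAM replicates 2 and 3). Low values were also found for DMBA3-4 TAM replicates 1 and 4 (4.95) and DMSO3-1 TAM replicates 2 and 4 (3.85) and 1 and 6 (4.55). The other pairs within a group ran from 7.03 to 30.5. Whether the closer pairs shared a mouse or a preparation was not tested. Exon lengths and coordinates are from GENCODE M21. The members and gene lists were chosen with earlier results of these data known. Named genes are the 10 members, up to 2 called genes each way per list and the 3 genes most like Cd274 and Pvr. Cd80, Pdcd1, Cdh23, the Sirpb1 genes and the single marker genes were named after their values were seen. A gene of the list of Cd274 regulators is not reported here and was left out of its counts, median and plot.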

Additional observations from a re-analysis of the deposited data

Results flagged for a closer look

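Among 16 groups of 6 libraries (the 8 tested genes in each group), 2 held a library far from the rest, where chance alone flags about 1 in 20 groups. Both were DMSO3-1 TAM replicate 5. Lgals9 stood at 95.5 CPM there, with the nearest library at 64.8 and a gap of 0.693 of the range. Sirpa stood at 15.1 CPM, with the nearest at 4.76 and a gap of 0.894 of the range. Nectin2 was at its lowest in the same library (4.84 CPM).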

How the results depend on the processing

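The 4 genes higher in DMBA3-4 TAM kept their call and direction in all 26 alternatives, with log2 fold changes of 3.91 to 5.62 for Vsir, 1.62 to 2.55 for Cd274, 1.27 to 1.53 for Lgals9 and 0.83 to 1.36 for Cd276. The number of members called was 4 to 6 over these, and 4 to 5 when each library was left out. Pvr was called in none (-0.10 to 0.08). Nectin2 and Cd47 were each called lower in 7 alternatives, among them DESeq2 and limma-voom with quality weights, and Sirpa in none. The count over all genes was 6918, and 6490 to 7139 without each library in turn. It was 4605 without DMSO3-1 TAM replicates 2 to 5 and 7544 without replicates 1 and 6 of that group, both with fewer libraries fitted. It was 6836 with replicate 5 of both groups left out, a choice made after seeing the data, and 8354 of 33387 genes without the filter, where the median log2 fold change of all genes was -0.13. Shared replicate numbers did not pair the libraries (correlation of deviations -0.158 to 0.129, 1 of 6 over 0.1, and 0 of 6 highest with their own number), and with the replicate block 6481 genes and 4 of 8 members were called. Few counts limit Cd274, Sirpa and Havcr2, and Vsir in DMSO3-1 TAM (0 to 6 counts). The lowest and highest log2 fold changes of Vsir, 3.91 and 5.62, came from pseudocounts of 1 and 0.1 CPM.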
